A study of Drosophila melanogaster with 4 samples.

Results

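The Iroquois complex of Drosophila melanogaster consists of 3 neighbouring homeobox genes on chromosome arm 3L, araucan (ara), caupolican (caup) and mirror (mirr). H3K27me3, the trimethylated form of lysine 27 of histone H3, was examined over a window of 220.001 kb on 3L that was set around these genes (positions are on FlyBase release 5). It begins 4249 bp before position 12534249 and ends 24875 bp after position 12725125, the outermost edges of the regions described below. Every enriched region that touches the window was taken as a member. This gave 4 of the 4865 regions of ChIP replicate 1, 6 of the 10330 regions of ChIP replicate 2 and 4 of the 10507 regions of a list deposited for the series as a whole.

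The Iroquois genes code for transcription factors of the TALE class of homeodomain proteins. In the fly they are known for setting the dorsal identity of the eye and for placing sensory bristles and patterning the notum. ara and caup are close relatives with largely shared expression, while mirr is the more divergent member and is also known from the dorsal eye and the ovary. H3K27me3 is laid down by the Polycomb repressive complex PRC2 and typically spans whole developmental genes and the sequence between them where these are silenced.

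All libraries came from head nuclei of wild-type Oregon-R flies, labelled as mixed adults and raised in population cages over a 22-day cycle, with heads separated from bodies by sieving. The 2 ChIP replicates were precipitated with 1 Abcam antibody against H3K27me3 (lot 3), and each had its own input library, for which no list was used here. Separate fly collections for the replicates are not stated, and the differences between them could be technical. A head sample mixes many cell types, so a region shows that the mark was present in some of them. Read depth is unknown from these lists, and with 2 replicates of 1 group no test between conditions can be made, so values are given as descriptions.

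The arrangement of the genes was taken from the RefSeq gene table, which is on release 6. All 3 members matched by symbol (ara, Dmel_CG10571, caup, Dmel_CG10605, and mirr, Dmel_CG10601). They stand in this order along 3L, with caup directly after ara and 4 long non-coding RNA genes between caup and mirr (CR32111, CR43431, CR44553 and CR44552). sowah and the long non-coding RNA gene CR43612 precede ara. mirr is followed by SmD1, which codes for a core protein of the spliceosome, and Ptp69D, which codes for a receptor tyrosine phosphatase known from axon guidance. Coordinates were not carried between releases, so the regions below are described by position, and coverage of each single gene was not analysed here.

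H3K27me3 formed 1 nearly continuous block over the window in both replicates, and also in the whole-series list. In replicate 1 the block began at 12535491 and ended at 12725125. In replicate 2 it began at 12534249 and ended at 12723925, and in the whole-series list these positions were 12534333 and 12724985. Its width was 189.635 kb in replicate 1 and 189.677 kb in replicate 2, although the left edges lay 1242 bp apart and the right edges 1200 bp apart. Replicate 2 extended further on the left and replicate 1 further on the right. In the whole-series list the block was 190.653 kb wide.

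Of the window, 85.8% lay inside regions in replicate 1 (188655 bp), 84.1% in replicate 2 (184922 bp) and 86.4% in the whole-series list (190026 bp). The mean of the replicates was 84.9% ± 1.20 (SD, n = 2), or 186.8 kb ± 2.64. The rest of 3L was covered to 19.0% in replicate 1, 28.7% in replicate 2 and 32.9% in the whole-series list. The window thus exceeded the rest of the arm in both replicates, by 61.1 percentage points ± 8.07 (SD, n = 2). It was chosen with earlier results of these data known, so this excess is a description and not a test. The rest of the arm alone had an SD of 6.87, against 1.20 for the window, so the spread reflects mainly the rest of the arm. The window made up 3.92% of all sequence covered on 3L in replicate 1 and 2.58% in replicate 2.

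**Figure D1:**
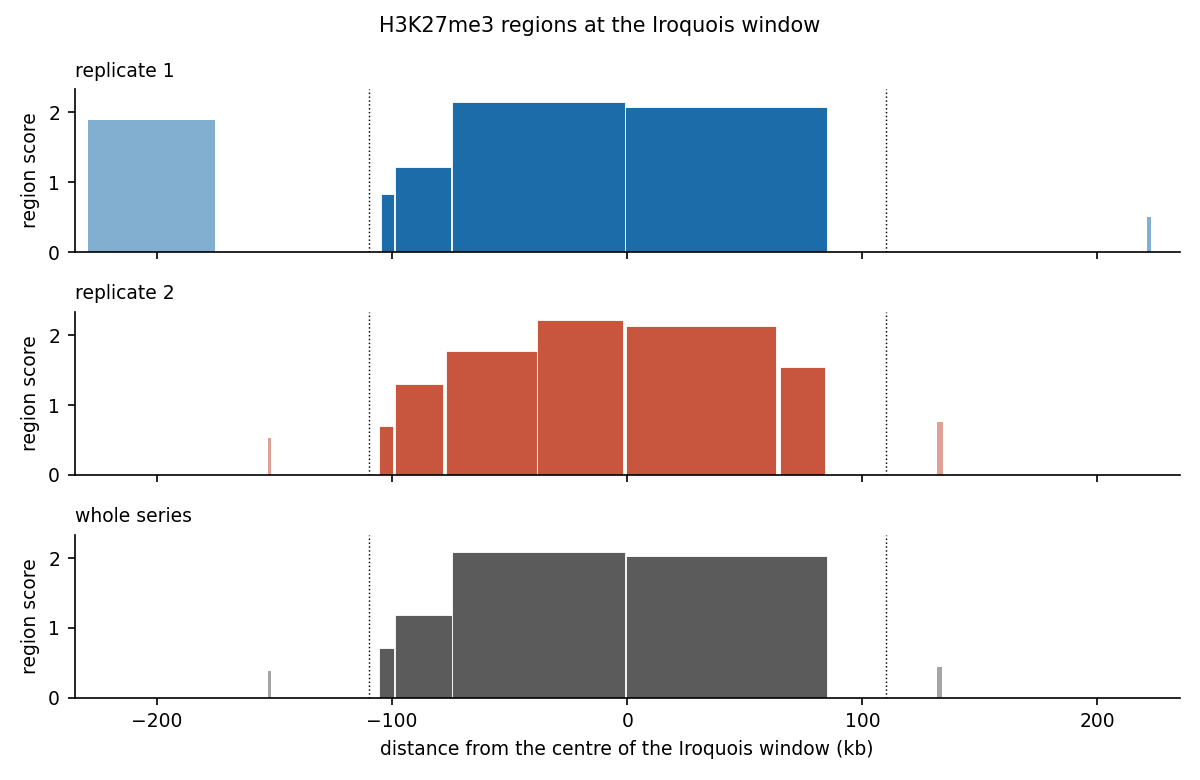
Enriched regions at the Iroquois window in each list, drawn to scale by distance from the centre of the window (kb), with the score of each region as its height. Dotted lines are the limits of the window, paler bars are the nearest regions outside it, and the map shows 4 pieces between the limits in replicate 1, 6 in replicate 2 and 4 in the whole-series list.

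The block was cut into 4 pieces in replicate 1. From left to right these were 5241 bp (12535491 to 12540731), 23.8 kb (12541126 to 12564907), 73.7 kb (12565368 to 12639103) and 85.9 kb (12639230 to 12725125). The 2 pieces on the right ranked 6 and 4 in width among the 852 regions on 3L. Replicate 2 had 6 pieces, of 6269 bp (12534249 to 12540517), 20.6 kb (12541285 to 12561861), 38.6 kb (12562931 to 12601538), 36.5 kb (12601771 to 12638273), 64.0 kb (12639457 to 12703440) and 19.0 kb (12704945 to 12723925). The piece of 64.0 kb was the widest of the 1972 regions of replicate 2 on 3L. The whole-series list followed the division of replicate 1, with pieces of 6617 bp, 24.2 kb, 73.6 kb and 85.6 kb.

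Breaks between the pieces were short, and some recurred while others did not. In replicate 1 the 3 gaps measured 394, 460 and 126 bp, and in replicate 2 the 5 gaps measured 767, 1069, 232, 1183 and 1504 bp. Gaps between regions on 3L had a median of 2700.5 bp in replicate 1 and 2335 bp in replicate 2, so each gap inside the block was shorter than the median of its list. The leftmost break was present in all 3 lists, and the 394 bp without a region in replicate 1 (12540732 to 12541125) had none in replicate 2 either. The break in the middle of the block also recurred in all 3 lists, with the 126 bp of replicate 1 (12639104 to 12639229) lying inside the 1183 bp of replicate 2 (12638274 to 12639456). At the second break from the left the replicates did not coincide, since the gap of replicate 2 (12561862 to 12562930) ended 1977 bp before that of replicate 1 (12564908 to 12565367) began. The gaps of replicate 2 at 12601539 to 12601770 and at 12703441 to 12704944 had no counterpart in replicate 1 or in the whole-series list.

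The replicates marked almost the same bases of the Iroquois window. They shared 183220 bp, or 97.1% of what replicate 1 covered there and 99.1% of what replicate 2 covered. The Jaccard index, which divides the shared bases by the bases marked in at least 1 replicate, was 96.3% in the window, against 49.3% over the rest of 3L and 55.3% over the 5 major arms. The index depends on how much each list covers, so these values are not like for like. Replicates that cover 85.8% and 84.1% of a window must overlap in most of it, wherever their regions lie. Over the rest of 3L the replicates covered 19.0% and 28.7%, and such unequal lengths lower the highest index that can be reached. The lengths alone do not set the value, since 789921 bp of replicate 1 there also lay outside the regions of replicate 2. Windows of like coverage are compared further below. In the Iroquois window, replicate 1 alone covered 5435 bp. The longest such stretches were the 1504 bp and 1069 bp gaps of replicate 2 and the 1200 bp at the right edge. Replicate 2 alone covered 1702 bp, made of 1242 bp at the left edge and the 460 bp gap of replicate 1.

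Counted in bins of 1 kb, 185 of the 220 bins of the window were covered to at least 50% in both replicates. In the 5 major arms together this held for 20.7% of bins. A further 5 bins were covered in replicate 1 alone, 1 in replicate 2 alone and 29 in neither. Replicate 1 covered 190 bins, against 23.8% of bins on the major arms, replicate 2 covered 186, against 34.0%, and the whole-series list covered 191, against 38.4%.

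Replicate 2, the longer list, covered no more of the Iroquois window than replicate 1. Over all sequences the regions of replicate 2 covered 1.43 times the length of those of replicate 1, and over the rest of 3L 1.51 times. In the window the ratio was 0.980. Replicate 1 already covered 85.8% of the window, so a ratio of 1.43 or 1.51 could not have arisen there. Other nearly full windows had like ratios, with a median of 0.976 over the 10 windows of the same length covered to at least 80% as a mean of the replicates, the Iroquois window included (lowest 0.645, highest 1.18). These windows were chosen for their high coverage, which limits their ratios as well. With the list of replicate 2 cut to its 4865 highest-scoring regions, as many as in replicate 1, the 6 pieces remained. The lowest of them, with a score of 0.71 and rank 4848, was close to the limit of that cut.

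Scores rose from the left edge of the block towards its middle in each list. The score is the authors' own value per region, on a scale not given in the sources used here, and is ranked within a list. In replicate 1 the 4 pieces scored 0.83, 1.22, 2.15 and 2.08 from left to right. In replicate 2 the 6 pieces scored 0.71, 1.31, 1.78, 2.22, 2.13 and 1.54. In the whole-series list the scores were 0.71, 1.19, 2.09 and 2.03. The narrow piece at the left edge had the lowest score in all 3 lists, and the pieces on either side of the break in the middle had the highest. On the right, the block ended with a piece scoring 2.08 in replicate 1, whereas replicate 2 had its last piece, of 1.54, set apart by a gap. One score is given per region, so a change within a piece is not visible.

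Read as ranks, the middle pieces stood near the top of their lists and the left edge did not. The 73.7 kb piece of replicate 1 ranked 36 of 4865 by score and the 85.9 kb piece ranked 54. In replicate 2 the 36.5 kb piece ranked 49 of 10330 and the 64.0 kb piece ranked 71. The left piece ranked 1083 in replicate 1 and 4848 in replicate 2. The percentiles of the pieces within their list, averaged with their widths as weights, came to 97.8% in replicate 1, 96.5% in replicate 2 and 98.2% in the whole-series list. These percentiles count each region of a list once, whatever its width. Measured by length, the share of the list with a lower score was 84.7% in replicate 1, 89.3% in replicate 2 and 91.2% in the whole-series list. Wide regions scored higher in general, so the pieces were also set against regions of at least 20 kb. Among these the 73.7 kb and 85.9 kb pieces ranked 30 and 45 of 260 in replicate 1, and the 36.5 kb and 64.0 kb pieces ranked 23 and 32 of 223 in replicate 2. The 38.6 kb piece of replicate 2, which lies within the extent of the 73.7 kb piece and the one before it in replicate 1, ranked 99 of 223. The second piece from the left was below the median of wide regions in both replicates, with 1.22 against 1.57 and 1.31 against 1.71.

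**Figure D2:**
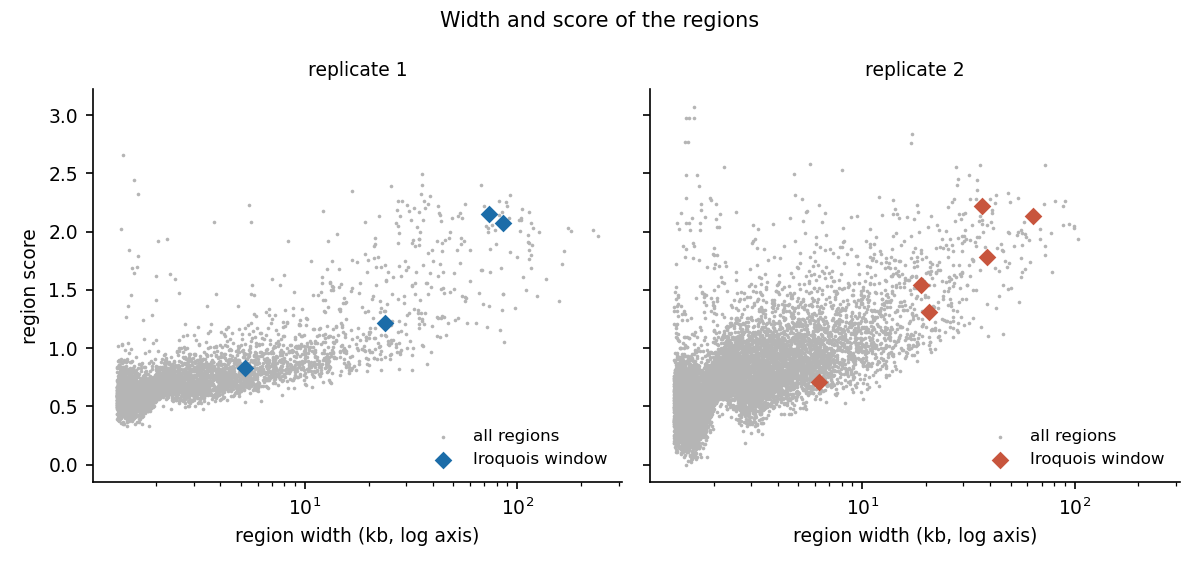
Width (kb, log axis) and score of each region in replicate 1 and replicate 2, with the members of the Iroquois window as diamonds. The narrow piece at the left edge lies within the mass of regions (scores 0.83 and 0.71), while the 73.7 kb and 85.9 kb pieces of replicate 1 (2.15 and 2.08) and the 36.5 kb and 64.0 kb pieces of replicate 2 (2.22 and 2.13) lie near the top.

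The block was bounded by long stretches without regions on both sides. On the right, no list had a region in the last 20 kb of the window, and 2 of the 22 bins of 10 kb were empty in each list. The free stretch to the right of the block measured 135.9 kb in replicate 1, 47.8 kb in replicate 2 and 46.8 kb in the whole-series list. On the left it measured 70.7 kb, 45.7 kb and 45.9 kb. These stretches were longer than 91.9% of the gaps on 3L on the left and 95.5% on the right in replicate 1, and than 95.6% and 96.1% in replicate 2. The regions just outside the window were therefore distant from its members. In replicate 2 they were 1444 bp wide on the left (12487143 to 12488586, score 0.53) and 2384 bp wide on the right (12771738 to 12774121, score 0.76), and neither touched a region of replicate 1.

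Windows of the same length next to the locus were far less covered. The window to the left was covered to 38.9% in replicate 1 and 48.7% in replicate 2, and the window to the right to 4.39% and 11.3%. Further to the right along 3L the mark returned, with 62.5% and 54.0% in the second window and 85.7% and 73.2% in the fifth.

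**Figure D3:**
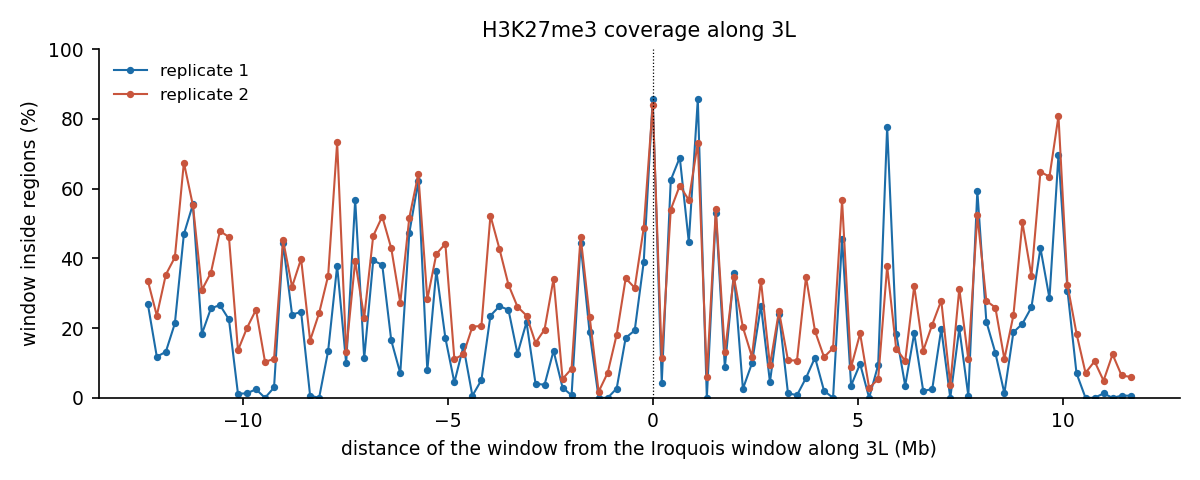
Share of consecutive windows of 220.001 kb along 3L that lay inside regions (%), by distance from the Iroquois window (Mb), in replicate 1 and replicate 2. The Iroquois window, at 0, reached 85.8% and 84.1%, and the window to its right 4.39% and 11.3%.

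Set against consecutive windows of the 5 major arms, 537 in all, the Iroquois window ranked 4 by coverage in replicate 1, 7 in replicate 2 and 13 in the whole-series list. The median window was covered to 17.3%, 31.3% and 35.4% in these lists. Coverage of at least 80% was reached by 2.23% of windows in replicate 1, 2.05% in replicate 2 and 5.03% in the whole-series list. On 3L the Iroquois window ranked 1 of 110 in both replicates and 2 of 110 in the whole-series list. It was placed around its genes, however, while the others fell where the grid put them. When other windows were placed where they were fullest, the Iroquois window ranked 18 in replicate 1, 22 in replicate 2 and 36 in the whole-series list, and 2, 3 and 4 on 3L.

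**Figure D4:**
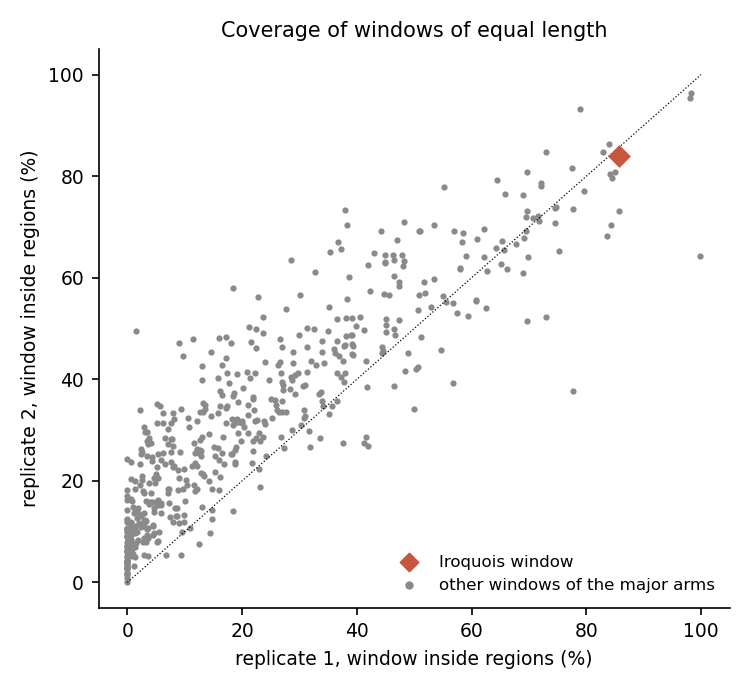
Share of each of 537 windows of the major arms inside regions (%), replicate 1 against replicate 2, with the line of equal values dotted. The Iroquois window (diamond) lies close to the line at 85.8% and 84.1%, and the medians of all windows were 17.3% and 31.3%.

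The 5 windows most like the Iroquois window, by distance over the 3 shares covered, lay at 26400121 to 26620121 on 3R, 8800041 to 9020041 on 2R, 5500026 to 5720026 and 1320007 to 1540007 on 2L, and 7920037 to 8140037 on 3R. They were similar in coverage by this choice, and what can be compared is how the calls were divided and shared. The Jaccard index of the replicates was 94.8% in the first and between 84.4% and 89.7% in the other 4, against 96.3% at the Iroquois window. Replicate 2 had 6 regions in the first and 23 to 25 in the other 4, against 6 at the Iroquois window. Replicate 1 had 2, 10, 4, 16 and 13 regions in these 5 windows, against 4, and the whole-series list had 5, 9, 3, 12 and 18, against 4. Among all 10 windows with a mean coverage of at least 80%, 1.86% of the 537, the Iroquois window had the third highest Jaccard index. It was below 98.1% and 97.1% in the windows on 3R that start at 2640013 and 12540058. Its 6 pieces in replicate 2 were the fewest of the 10, and the median was 20.5. The windows on 3R that start at 2640013 and 26400121 also had 6. In replicate 1 and in the whole-series list its 4 pieces were close to the medians of 4.5 and 5.

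The pieces were also joined wherever under 5 kb lay between them, which made the block 1 domain in each list. Joining under 1 kb was too short for replicate 2, where the longest gap inside the block was 1504 bp. It left 4 domains there, the widest of 75.3 kb (rank 45 of 6943). In the other lists it gave 1 domain, which ranked 8 of 3335 in width in replicate 1 and 6 of 6523 in the whole-series list. The ranks of replicate 2 that follow thus depend on the distance of 5 kb, which was needed to make the block 1 domain there. Joined under 5 kb, the domain ranked 14 of 1735 in width in replicate 1, 15 of 3321 in replicate 2 and 24 of 3032 in the whole-series list. Among the domains of at least 100 kb on the major arms, 73 in replicate 1 and 101 in replicate 2, it was more solid than the median, more clearly so in replicate 2. Regions filled 99.5% of it in replicate 1 (median 95.8%, rank 21 of 73) and 97.5% in replicate 2 (median 88.6%, rank 9 of 101). It held 2.11 pieces per 100 kb in replicate 1 (median 5.52) and 3.16 in replicate 2 (median 11.8). Counted from the most pieces, these ranked 48 of 73 and 96 of 101. Its length-weighted score ranked 13 of 73 and 11 of 101. The shorter of its free sides, 70.7 kb in replicate 1 and 45.7 kb in replicate 2, ranked 9 of 73 and 3 of 101, with medians of 10.7 kb and 7.59 kb.

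**Figure D5:**
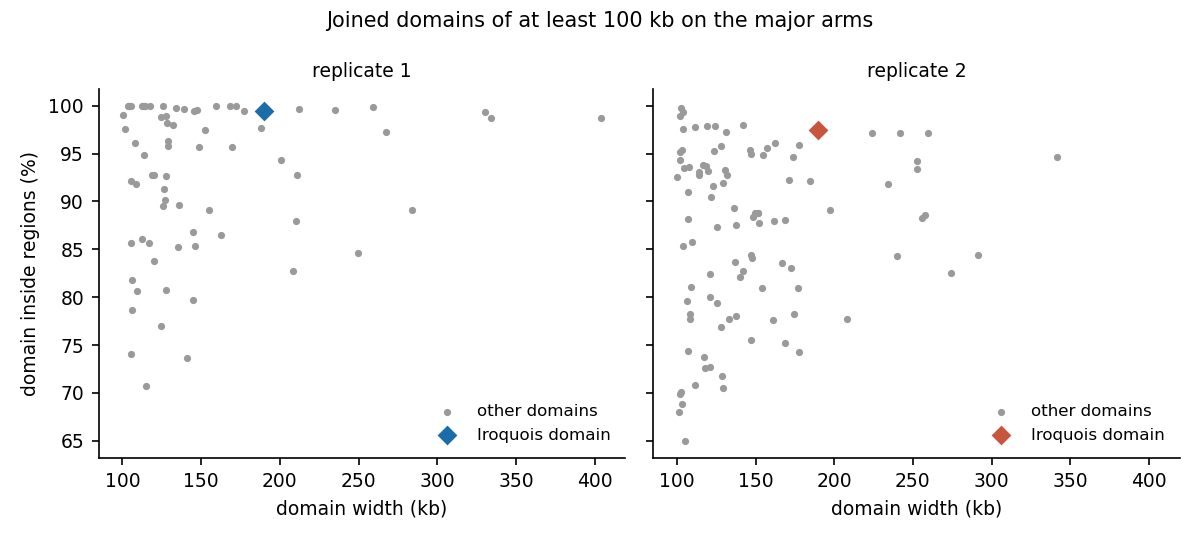
Width (kb) and share inside regions (%) of the domains of at least 100 kb on the major arms, after joining regions under 5 kb apart, in replicate 1 (73 domains) and replicate 2 (101 domains). The Iroquois domain (diamond) lies at 99.5% and 97.5%, above the medians of 95.8% and 88.6%, and 3 domains were both wider and fuller in replicate 1, against 0 in replicate 2.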

How the data were processed

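Per the submitters' processing notes, reads were aligned with Bowtie 0.12.7. The authors deposited lists of enriched regions on FlyBase release 5, per the file headers, each region with a start, an end and a score. The caller, its threshold, the scale of the score and the origin of the whole-series list (pooled reads or merged calls) were not given in the sources used. In replicate 2, 1 region on another arm is labelled as depletion and was not used. Read depth is unknown, so no interval from depth is given, and a list hides signal under the authors' threshold.

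From the lists, covered bases, overlap, bins, windows and joined domains were computed in Python 3.11.15 with numpy 2.4.6 and scipy 1.17.1, and the interval code was tested on simulated data. Positions are 1-based and the 5 major arms are 2L, 2R, 3L, 3R and X. The regions named are those that touch the window, and the 5 most like windows were taken by Euclidean distance over the 3 shares covered. The members, the window and these rules were chosen with earlier results of these data known. Gene coverage, which needs an annotation of release 5, gave way to 10 kb bins. Alternatives were score limits, minimum widths, joining, other window limits, other tilings and each replicate alone.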

Additional observations from a re-analysis of the deposited data

How the results depend on the processing

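In all, 53 recomputed values were compared, of which 36 stayed within the spread of the replicates, the counting interval or 1.5 times the count, 17 moved and 0 reversed. The counting interval, used for the overlap, was 92.6% to 98.5% and treats 183 shared kb of 190 kb as independent counts. Neighbouring kb of 1 block are not independent, so it served only to set the labels and does not measure the uncertainty of the overlap. Regions at or above the median score, regions of at least 5000 bp and lists of equal length changed neither the coverage, the overlap nor the number of pieces in the window, because no member fell under these limits. These unchanged values are part of the 36 and say little about robustness. Joining regions under 1000 bp apart left 1 piece in replicate 1, 4 in replicate 2 and 1 in the whole-series list, and joining under 5000 bp left 1 in each list, with a coverage of 86.2% and an overlap of 98.7%, all by construction. The coverage was 71.8% in a window 20 kb wider at both ends and 95.7% in one 20 kb narrower, since the block stayed the same. Each replicate alone gave 84.1% to 85.8%, which lies within the spread of the 2 replicates by construction. The rank among windows was 8 in replicate 1 with tiles shifted by 0.5 of a window and 4 in replicate 2 with lists of equal length. It was 18, 22 and 36 with other windows placed where they were fullest, an alternative chosen after seeing the data. Lists of equal length were likewise chosen after seeing the data for coverage, overlap and the number of pieces. The score percentile was 96.5% in replicate 1 as a median over pieces. No paired analysis was possible because no list of the inputs was used and no test was run. Unknown depth limits what a difference in list length can show.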

Other observations

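The next region to the left of the Iroquois block in replicate 1 was wide. It spanned 54.3 kb (12410489 to 12464751 on 3L) with a score of 1.89, and 1 region of replicate 2 covered it to 100%. It lay 70.7 kb from the block. The next region to the right in replicate 1, of 1731 bp at 12861016 to 12862746, was covered to 89.0% in replicate 2 and lay 135.9 kb from the block. In both directions the nearest sequence marked in both replicates was thus farther from the block than the narrow regions held by replicate 2 and not by replicate 1. The whole-series list also had narrow regions at these places (12487252 to 12488425, score 0.38, and 12771786 to 12774086, score 0.45).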
